A study of Mus musculus with 24 samples.

Results

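The step from the common myeloid progenitor (CMP) to the megakaryocyte erythroid progenitor (MEP) of mouse bone marrow was described from 4 lists of ATAC-seq peaks, 2 titled MEP and 2 titled CMP. Overlapping peaks that both replicate libraries of a population shared were merged over all 12 populations of the series into 207525 elements, and an element was called gained when MEP held a peak of both its replicates there and CMP did not, lost when CMP did and MEP did not, and kept when both did. By this rule 130281 of the 207525 elements belonged to the step, namely 22297 gained, 54357 lost and 53627 kept elements. The 12 populations were 10 primary ones and the cell lines G1E and G1E-ER4+E2, where E2 stands for estradiol. Per the study, a Gata1 knockout blocks G1E in maturation, and G1E-ER4 is its subline rescued by a GATA1-ER protein that estradiol activates. CMP and MEP both came from male C57BL6 mice labelled adult, which the study's methods give as 5 to 8 weeks old. They were untreated, without any engineered allele named in the labels, and were sorted as lineage-negative, cKit-positive and Sca1-negative cells. MEP were the CD34-negative, CD16/32-negative cells and CMP the CD34-positive, CD16/32-negative cells of that gate, so each population is a gate that can hold more than 1 kind of progenitor. ATAC-seq marks open DNA by the cuts of a transposase, and a peak is a stretch, here about 150 bp long, where cuts pile up. The study calls the replicates biological, either from separate groups of mice or from separate sorted aliquots of 1 group, without saying which applies here. Any p-value here measures only the spread between 2 libraries of the same population, which the test of gene windows pooled over all 12 populations.

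CMP give rise to MEP, which feed the red cell and platelet lines, and to granulocyte monocyte progenitors (GMP). GATA1 and its partners FOG1 (Zfpm1), TAL1, LMO2, GFI1B and KLF1 are the factors best known for opening erythroid and megakaryocytic genes, and GATA factors bind the letters GATA. PU.1 (Spi1), C/EBP factors and GFI1 are known for granulocyte and monocyte genes, and PU.1 binds a GAGGAAGT-like site. Elements far from transcript starts are mostly enhancers, and they differ more between blood cell types than promoters do.

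The 8 elements below show what was gained and lost. The first 4 were gained with no peak in either CMP library, lay more than 1 kb from a transcript start and held the GATA motif, read on either strand as the letters AGATAA, as the variant AGATAG, or with another first base as the letters TGATAA and as the variant TGATAG. They were those with the highest scores, 1 for each gene, in windows of erythroid regulators, red cell proteins, heme and iron or megakaryocyte genes, out of 96 such elements. Each line gives 200 bases about the element centre in mm10, plus strand, with the motif in capitals; a motif on the minus strand reads in reverse complement.
Plek (a platelet signalling protein), intron, chr11:16992978-16993177: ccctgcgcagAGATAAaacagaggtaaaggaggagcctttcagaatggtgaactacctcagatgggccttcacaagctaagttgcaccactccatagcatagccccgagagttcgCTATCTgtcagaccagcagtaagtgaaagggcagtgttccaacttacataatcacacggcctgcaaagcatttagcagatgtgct
Ikzf1 (Ikaros, a lymphoid and erythroid factor), intron, chr11:11728204-11728403: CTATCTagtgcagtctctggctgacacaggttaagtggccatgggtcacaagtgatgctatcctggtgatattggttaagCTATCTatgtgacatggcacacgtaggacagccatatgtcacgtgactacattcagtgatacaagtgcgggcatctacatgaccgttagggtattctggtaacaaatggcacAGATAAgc
Gfi1b (a repressor needed for red cells and megakaryocytes), intron, chr2:28616937-28617136: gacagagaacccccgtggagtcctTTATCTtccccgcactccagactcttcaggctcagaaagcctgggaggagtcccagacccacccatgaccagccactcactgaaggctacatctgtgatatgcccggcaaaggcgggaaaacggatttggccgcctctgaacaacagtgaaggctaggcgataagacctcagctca
Zfpm1 (FOG1, the partner of GATA1), intron, chr8:122273945-122274144: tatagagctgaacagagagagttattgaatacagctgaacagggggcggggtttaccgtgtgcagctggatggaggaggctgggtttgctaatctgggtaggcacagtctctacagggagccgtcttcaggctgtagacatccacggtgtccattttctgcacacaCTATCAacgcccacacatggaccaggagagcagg
The word intron means within the body of any annotated gene, not always the gene named. The start nearest to the Zfpm1 element was that of Zfp469, 4476 bp away, so this element need not lie in an intron of Zfpm1. The Ikzf1 element held 3 GATA motifs, the Plek element 2 and the others 1 each. The score of each element lay between the 90.4 and the 94.3 percentile of all peaks of its MEP library. CFUMK had a peak in all 4, ERY in those at Ikzf1, Gfi1b and Zfpm1, and CFUE in those at Gfi1b and Zfpm1. The next 4 were lost with no peak in either MEP library and held the PU.1 motif GAGGAAGT, in windows of granulocyte, monocyte or stem cell genes, out of 37 such elements.
Ltf (lactoferrin of neutrophil granules), intergenic, chr9:111046297-111046496: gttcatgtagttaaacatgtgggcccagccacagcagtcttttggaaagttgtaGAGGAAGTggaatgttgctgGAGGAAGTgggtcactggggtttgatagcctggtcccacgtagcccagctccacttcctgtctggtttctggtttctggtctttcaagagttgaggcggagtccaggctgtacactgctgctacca
Csf2ra (the GM-CSF receptor alpha chain), intergenic, chr19:61244777-61244976: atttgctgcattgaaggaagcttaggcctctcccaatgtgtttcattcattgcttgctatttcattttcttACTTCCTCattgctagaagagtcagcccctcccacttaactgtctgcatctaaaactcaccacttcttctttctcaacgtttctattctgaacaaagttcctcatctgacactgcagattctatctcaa
Cd63 (a granule and lysosome membrane protein), intron, chr10:128902483-128902682: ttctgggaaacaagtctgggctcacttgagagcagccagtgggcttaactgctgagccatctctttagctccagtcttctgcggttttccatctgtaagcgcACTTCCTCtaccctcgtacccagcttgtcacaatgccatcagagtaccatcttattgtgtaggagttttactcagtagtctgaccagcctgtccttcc
Sirpa (a phagocyte inhibitory receptor), intron, chr2:129596023-129596222: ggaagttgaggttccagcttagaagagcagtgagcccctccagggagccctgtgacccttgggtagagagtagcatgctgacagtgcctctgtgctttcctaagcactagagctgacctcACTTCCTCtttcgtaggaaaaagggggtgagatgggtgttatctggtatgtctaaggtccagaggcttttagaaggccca
The Ltf element held the motif at 2 places, and the Ltf, Csf2ra and Sirpa elements also held a GATA motif, which is not capitalized here. These elements scored between the 90.3 and the 97.1 percentile of their CMP library, and all 4 had a peak in GMP, CFUMK and iMK. An element was assigned to the gene whose body and 20 kb on each side held it, which does not show that it acts on that gene.

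MEP held fewer peaks than CMP. The 2 MEP libraries had 165774 and 160409 peaks, against 223355 and 204055 peaks in the 2 CMP libraries, a mean of 163092 ± 3794 in MEP and 213705 ± 13647 in CMP (SD, n = 2 each). A two-sided exact permutation test gave p = 0.333, and no comparison of 2 with 2 libraries can go lower. The relative depth, read from the steps between the lowest scores, was 100% and 72.7% of the deepest of the 4 in MEP and 98.7% and 46.5% in CMP, so the shallowest library was a CMP library with more peaks than either MEP library. Peaks within 1 kb of a transcript start made up 34.2 ± 1.67% of MEP peaks and 30.7 ± 3.10% of CMP peaks (SD, n = 2 each; exact permutation test, two-sided, p = 0.333).

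Fewer CMP peaks were found in MEP than in the other CMP library. Of the peaks of CMP replicate 1, 45.5% and 47.3% were found in the MEP libraries, and 73.6% in the other CMP library. Of the peaks of CMP replicate 2, 47.5% and 50.2% were found in MEP and 83.6% in the other CMP library. For MEP peaks the gap was narrower. Of the peaks of MEP replicate 1, 71.3% were found in the other MEP library and 62.0% and 56.7% in the CMP libraries, and of those of MEP replicate 2, 74.4% were found in the other MEP library and 67.1% and 62.3% in the CMP libraries. The CMP lists are longer, which lowers the share of CMP peaks found in MEP and raises the share of MEP peaks found in CMP. With the 160409 highest scoring peaks of each library, 26654 elements were gained and 40642 lost, so the excess of losses was smaller than with all peaks.

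**Figure D1:**
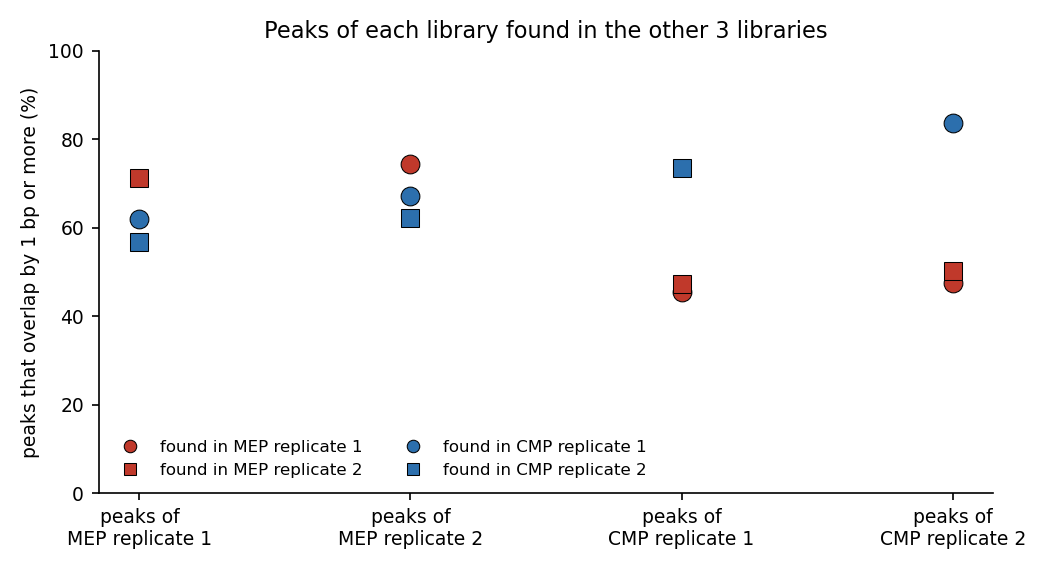
Percent of the peaks of each library (x axis) that overlapped a peak of each of the other 3 libraries by at least 1 bp (y axis); red symbols mark overlap with MEP libraries and blue symbols overlap with CMP libraries. Peaks of the 2 CMP libraries were found in MEP at 45.5% to 50.2%, below the 73.6% and 83.6% found in the other CMP library, while the gap was smaller for MEP peaks.

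The libraries carry numbers in 2 runs, 1 run with replicate 1 and the other with replicate 2 of both populations. Changes seen in 1 run were repeated in part in the other. Of the 62994 peaks of MEP replicate 1 that CMP replicate 1 lacked, 41.7% were found in MEP replicate 2 and 10.5% in CMP replicate 2. Of the 60553 peaks of MEP replicate 2 that CMP replicate 2 lacked, 55.7% were found in MEP replicate 1 and 26.3% in CMP replicate 1. Losses were repeated more often: of the 121834 peaks of CMP replicate 1 that MEP replicate 1 lacked, 13.2% were found in MEP replicate 2 and 63.5% in CMP replicate 2, and of the 101691 such peaks of CMP replicate 2, 10.4% were found in MEP replicate 1 and 74.7% in CMP replicate 1.

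MEP held 75924 elements and CMP 107984. The 22297 gained elements made up 29.4% of the MEP elements, and the 53627 kept elements were 49.7% of the CMP elements. Over the 4 pairs of 1 MEP and 1 CMP library, the share of CMP elements kept ran between 51.6% and 54.1%, gained elements numbered between 18196 and 25084, and lost elements between 54294 and 61172. Among the gained elements, 13674 (61.3%) had no peak in either CMP library, and among the lost elements 42573 (78.3%) had no peak in either MEP library. The remaining 8623 gained and 11784 lost elements had a peak in at least 1 library of the other population. For the gained ones the split was uneven: 7055 had a peak in CMP replicate 1 and 1695 in CMP replicate 2, the shallower CMP library. For the lost ones, 4916 had a peak in MEP replicate 1 and 7190 in MEP replicate 2. The part of depth in these splits was not tested. With MEP replicate 1 or MEP replicate 2 left out and the other library standing alone, the gained elements numbered 44708 and 56416. With CMP replicate 2 left out the lost elements numbered 92637 and the gained elements 15268.

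Strong elements were mostly kept, and weak ones changed more often. The classes rest on whether a peak was called and the scores are of the same peaks, so this follows in part from the rule. CMP elements were split into 5 equal groups by the lower of their 2 score percentiles, and MEP elements likewise. In the weakest group, 50.5% of the MEP elements were gained and 24.5% of the CMP elements were kept. In the strongest group, 6.50% of the MEP elements were gained and 81.6% of the CMP elements were kept. Even in the strongest group, 12.95% of the CMP elements had no peak in either MEP library, and 2.27% of the MEP elements had none in either CMP library. The median width of the merged elements was 232 bp for gained, 272 bp for lost and 350 bp for kept elements. Elements were merged over the peaks of all 12 populations, so those with peaks in more libraries can be wider by the merging alone.

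Gained and lost elements lay mainly outside promoters. The median distance from the element centre to the nearest transcript start was 6955 bp for gained, 8411 bp for lost and 2871 bp for kept elements. Within 1 kb of a start lay 16.8% of the gained and 16.0% of the lost elements, against 39.0% of the kept elements; over the 4 library pairs the gained share ran between 16.4% and 19.3% and the lost share between 14.8% and 16.6%. These ranges overlap, so gained and lost elements could not be told apart by their promoter share. Introns held 50.7% of the gained and 44.0% of the lost elements, and 27.8% of the gained and 35.8% of the lost elements were intergenic. Coding exons held 1.31% of the gained and 1.29% of the lost elements.

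The share lost went on climbing with distance, while the share gained did not. Within 250 bp of a start, 8.51% of MEP elements were gained and 78.1% of CMP elements were kept. Between 1 and 5 kb, 36.1% of MEP elements were gained and 45.5% of CMP elements were kept. Beyond 100 kb, 35.1% of the 884 MEP elements were gained and 28.7% of the 2000 CMP elements were kept. From 1 kb outward the gained share stayed between 35.1% and 36.9%.

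**Figure D2:**
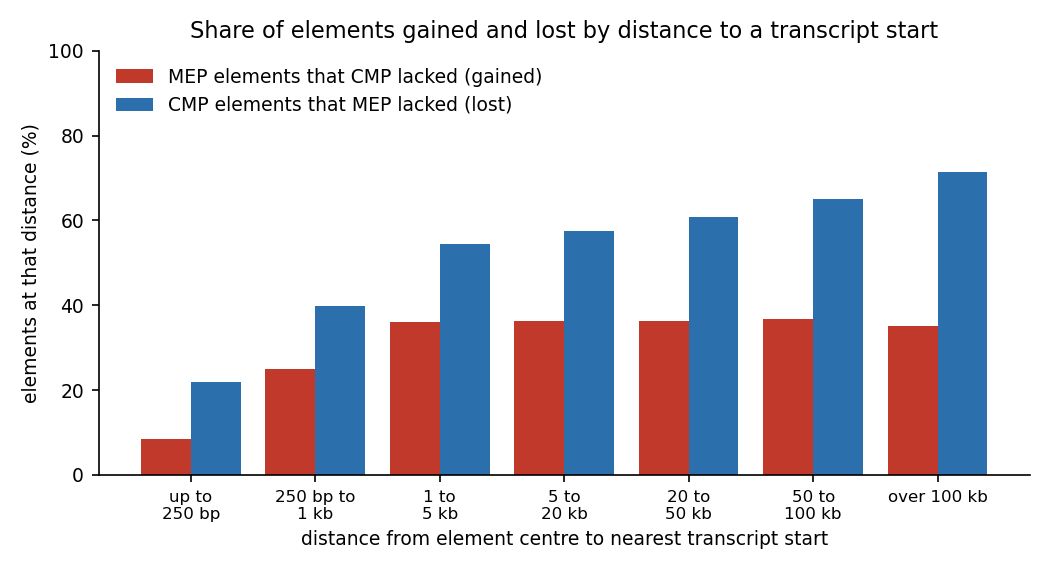
Percent of MEP elements that were gained (red) and of CMP elements that were lost (blue) in 7 classes of distance between element centre and nearest transcript start. The gained share was 8.51% within 250 bp and 35.1% to 36.9% from 1 kb outward, whereas the lost share was higher in each class that lay farther out.

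The sequence of gained and lost elements differed. The GATA motif lay within 200 bp about the centre of 64.0% of gained, 28.1% of lost and 31.0% of kept elements, and in 32.6% of all elements of the 12 populations. The gained share ran between 60.4% and 61.0% over the 4 library pairs, apart from the ranges of the lost (26.9% to 27.5%) and kept elements (31.1% to 34.0%). Among elements more than 1 kb from a start, the motif lay in 67.8% of gained, 29.7% of lost and 39.6% of kept elements, against 33.1%, 32.7% and 32.8% in the same windows moved by 10 kb. The lost elements thus held it slightly less often than the sequence nearby. At promoters the shares were 45.4% of gained, 19.6% of lost and 17.5% of kept elements. At least 2 GATA motifs lay in 27.5% of gained, 5.08% of lost and 8.27% of kept elements. Among gained elements with no CMP peak 67.9% held the motif, and among those with a CMP peak 57.9%.

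Within the distal gained elements the GATA motif was most frequent near the centre of the element. It occurred 7.14 and 6.99 times per 100 gained elements in the 10 bp bins on each side of the centre, and 2.69 and 3.25 times in the outermost bins at the edges of the window. Lost elements had no such peak, with 1.85 and 1.70 motifs at the centre and 1.57 and 1.42 at the edges. The composite of an E-box core, CTG, and a GATA site with 8 or 9 bases between them, which the TAL1 and GATA1 complex is known to bind, lay in 12.2% of distal gained, 1.93% of distal lost and 5.45% of distal kept elements, against 1.43%, 1.48% and 1.76% in the windows moved by 10 kb. The KLF motif CCACACCC, a site of KLF1, lay in 5.49%, 2.58% and 3.13% of these classes.

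Lost elements held the PU.1 and RUNX motifs more often than gained ones. PU.1's GAGGAAGT lay in 0.95% of gained, 11.4% of lost and 2.64% of kept elements, and in 6.35% of all elements of the 12 populations. The lost share ran between 11.4% and 11.9% over the library pairs and the gained share between 1.10% and 1.23%. Among distal elements it was 0.98% of gained, 12.1% of lost and 3.13% of kept elements, against 1.28%, 1.38% and 1.32% in the windows moved by 10 kb. Promoter elements that were lost held it too, in 7.61%, against 0.80% of those gained and 1.87% of those kept. The RUNX motif TGTGGTTT lay in 2.35% of distal gained and 6.47% of distal lost elements, and the AP-1 motif TGANTCA in 6.87% and 10.2%. The C/EBP motif TTGCGCAA was rare in both, at 0.01% and 0.16%. The MEIS/HOX motif TGATTTAT, of stem cell factors, lay in 0.38% of distal gained and 0.92% of distal lost elements, less often than in the windows moved by 10 kb (0.88% and 1.04%). CTCF sites, at boundaries and loops shared by many cell types, lay in 11.5% of distal kept elements and in 2.49% of distal gained and 2.51% of distal lost elements. All motifs were searched on both strands, and a match is a description of the sequence, not a bound site.

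**Figure D3:**
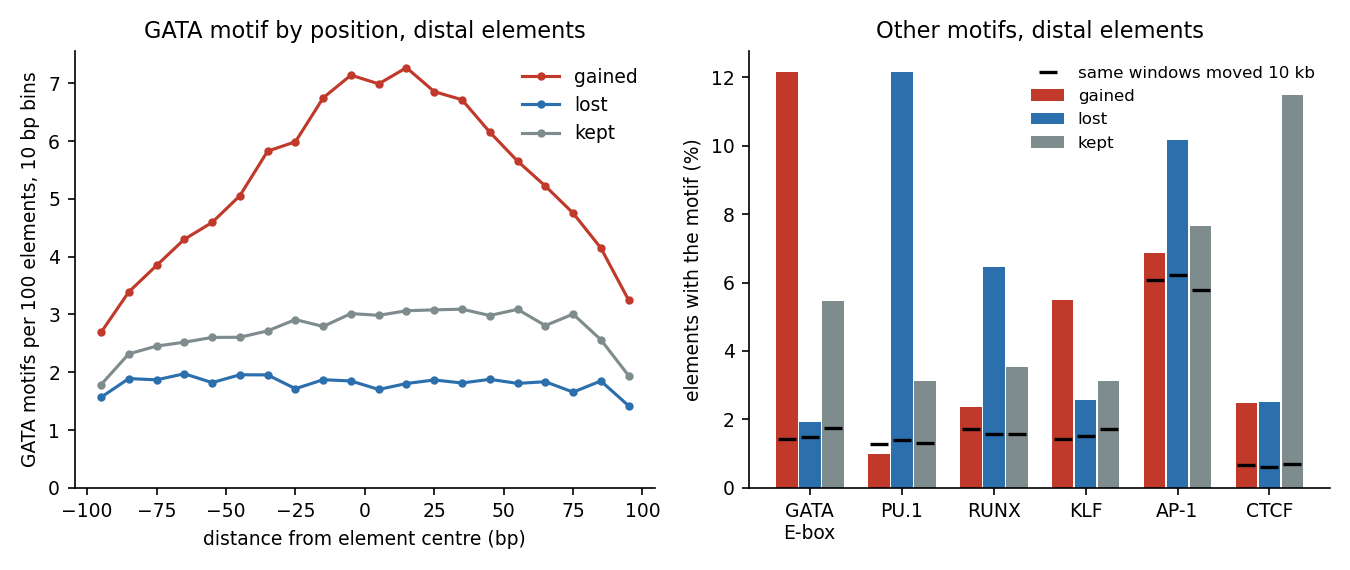
Left, GATA motifs per 100 distal elements in 10 bp bins along the 200 bp about the element centre; right, percent of distal elements with each of 6 other motifs, the black dashes giving the same windows moved by 10 kb. GATA motifs in gained elements (red) peaked near the centre, with 7.27 per 100 elements in the highest bin, the GATA E-box composite was most frequent in gained, PU.1 and RUNX in lost (blue) and CTCF in kept (grey) elements.

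The gained elements were shared unevenly with other populations, whose lists differ in length, so each share is given beside the share of all 207525 elements that the population held. CFUMK, megakaryocyte colony-forming cells, had 52.9% of the gained elements and 59.5% of all elements. CFUE, the erythroid colony-forming cells, had 22.5% of the gained and 19.7% of all elements, and ERY, erythroblasts, 20.7% and 20.01%, so none of these stood far above its share of all elements. LSK, the stem and multipotent cells, had 3.50% of the gained elements and 33.3% of all, GMP 7.85% and 54.9%, immature megakaryocytes (iMK) 8.14% and 47.1%, monocytes (MON) 3.42% and 25.2%, and neutrophils (NEU) 2.60% and 20.9%. No other population had 7274 (32.6%) of the gained elements. Split by line, 18.7% of gained elements were in both an erythroid (CFUE or ERY) and a megakaryocytic (CFUMK or iMK) population, 7.22% in erythroid ones alone, 35.8% in megakaryocytic ones alone and 38.3% in neither. Distal gained elements held the GATA motif in 68.2%, 59.6%, 71.0% and 65.8% of these 4 groups in that order, and the E-box composite in 15.9%, 9.58%, 13.5% and 9.72%. The elements in neither line were the weakest, with median score percentiles of 38.1 and 30.6 in the 2 MEP libraries, against 74.4 and 71.4 for those in both lines.

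Most lost elements were shared with GMP or with the megakaryocytic cells. GMP had 70.0% of the lost elements, CFUMK 71.0%, iMK 55.4% and LSK 43.2%, each above its share of all elements, whereas CFUE had 2.99% and ERY 3.46%, below theirs. MON had 25.3% and NEU 19.6%, close to theirs. LSK, GMP and a megakaryocytic population together had 18085 (33.3%) of the lost elements, and GMP and a megakaryocytic population without LSK another 17053 (31.4%). PU.1's motif lay in 15.1% and 13.7% of the distal elements of these 2 groups, and in 7.41% of those in none of LSK, GMP or the megakaryocytic populations. Kept elements, the other elements of CMP, were shared with these populations more often than lost ones. GMP had 79.0% of the kept elements, CFUMK 97.5%, iMK 75.2% and LSK 72.7%, and CFUE had 49.6% and ERY 51.1%. Lost elements were thus less shared with GMP, LSK and the megakaryocytic cells than kept elements were. These shares were not tested.

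**Figure D4:**
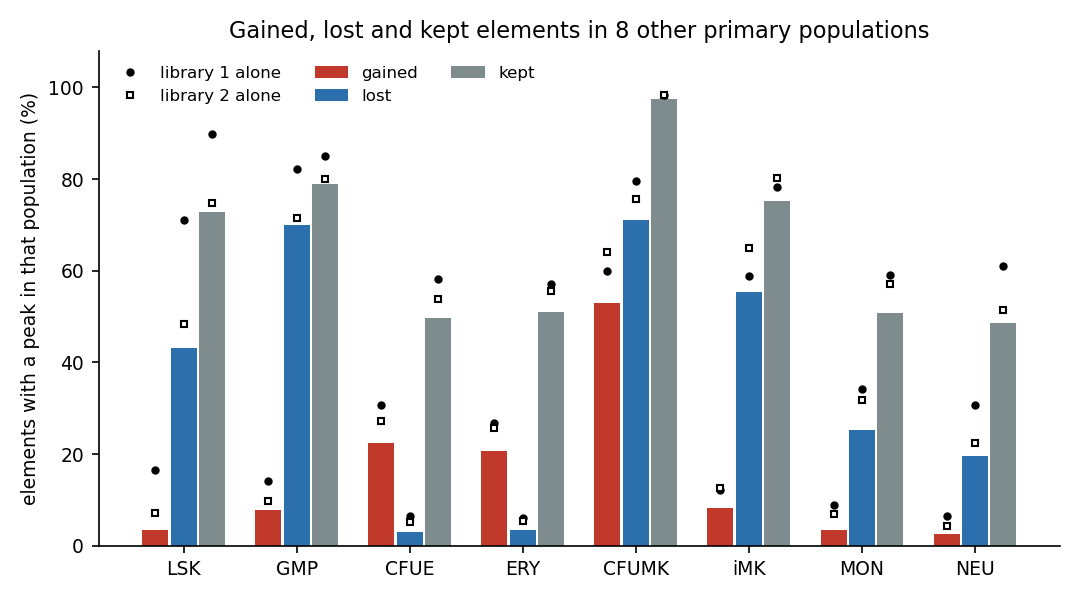
Percent of gained (red), lost (blue) and kept (grey) elements with a peak in both replicates of 8 other primary populations; the filled circle and the open square give the share with a peak in each library alone. Of the gained elements 52.9% were in CFUMK and 22.5% in CFUE, and of the lost elements 70.0% were in GMP and 2.99% in CFUE.

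Changed elements lay near others that changed the same way. Of the gained elements with another changed element within 10 kb, 52.1% had a gained element as the nearest, and gained elements were 29.1% of the changed ones; for lost elements the values were 80.3% and 70.9%. Groups of 3 or more elements of 1 class, joined by gaps of at most 10 kb, held 19.1% of the gained and 39.4% of the lost elements, in 1255 and 5602 clusters. Kept elements, close to the lost ones in number, had 40.1% in 5867 clusters, so such grouping was not particular to changed elements. Lost elements were more numerous than gained ones, so the gained and lost shares are not compared. The gained share fell to 11.3% without CMP replicate 2 and was 34.7% without MEP replicate 1 and 31.7% without MEP replicate 2. No lost element lay inside 952 (75.9%) of the gained clusters, and no gained element inside 4734 (84.5%) of the lost clusters.

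The clusters with most gained elements held 7 each. They lay in Piezo2, a mechanosensitive channel (chr18:63199807-63214448), in Atl1, an endoplasmic reticulum GTPase (chr12:69908265-69934025), in Emilin2, an extracellular matrix protein (chr17:71265113-71293204), and across Vps54 and Ugp2 (chr11:21294288-21328417). Clusters of 6 lay in Tspan12, a membrane protein (chr6:21785071-21790987), and nearest to Mc2r, the ACTH receptor (chr18:68397391-68404123). In the Piezo2 cluster 2 of the 7 elements had no peak in either CMP library, 5 held the GATA motif, 5 were also in CFUE, 6 in ERY and 6 in CFUMK, and none in LSK or GMP. The Tspan12 cluster packed its 6 elements, 5 with a GATA motif, into 5.92 kb, and only 1 of them was in CFUMK.

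The clusters with most lost elements held 12 or 11. Clusters of 12 lay across Pts, Bco2, Il18 and Tex12 (chr9:50520587-50567793) and in Nfatc2, a calcineurin-regulated factor (chr2:168553636-168605116). Clusters of 11 lay in a stretch whose nearest gene was Klf4, a monocyte factor, 264.9 kb away (chr4:55797408-55825228), in Tshz3 (chr7:36679340-36709573), in Ly86, a partner of a Toll-like receptor relative on B cells and myeloid cells (chr13:37322752-37356853), and in Serpinb2, an inhibitor of plasminogen activators made by monocytes (chr1:107496764-107534064). All 11 elements of the cluster on chromosome 4, in Ly86 and in Serpinb2 had no peak in either MEP library. Of the 11 on chromosome 4, 10 were also in GMP and 2 in LSK. The window of Klf4 itself had no gained or lost element and kept 5. None of the elements in these 6 clusters was in CFUE or ERY.

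Gene windows showed where the changes fell. Windows were the body of each protein-coding gene with 20 kb on each side. In all windows together, 45.3 elements were gained for every 100 lost and 52.9% of CMP elements were kept. Red cell protein genes (hemoglobin, membrane skeleton and blood group proteins; 29 matched genes) had 65 gained and 75 lost elements and kept 66.1% of the CMP elements. Erythroid regulators had 64 gained and 94 lost and kept 59.7%, and heme and iron genes had 28 gained and 42 lost and kept 67.9%. Granulocyte genes had 19 gained and 111 lost and kept 39.3%, monocyte and dendritic genes 22 and 147 and kept 39.0%, and B cell genes 4 and 56 and kept 40.4%. Megakaryocyte genes, at 73 gained and 144 lost and 54.4% kept, and stem and multipotent genes, at 94, 187 and 50.3%, lay near all genes. Housekeeping genes had 22 gained and 34 lost elements and kept 68.5%. Of the MEP elements, 30.8% were gained at red cell protein genes, 31.5% at erythroid regulators and 23.9% at heme and iron genes. Over all windows the gained share was 28.8%, and at stem and multipotent genes 33.2%. It was 20.9% at granulocyte genes and 19.0% at monocyte and dendritic genes. The red cell protein and erythroid regulator lists thus lay near all genes in the share gained. Windows of neighbouring genes overlap, and the elements of 1 list are not independent.

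Most listed genes lost more elements than they gained: 12 of 20 erythroid regulators did and 4 gained more, and 15 of 29 red cell protein genes did and 9 gained more. Sox6, a repressor of fetal globin, gained 23 elements, lost 14 and kept 17; Car1, a red cell carbonic anhydrase, gained 5, lost none and kept 1; Kel, a blood group protein, gained 4 and lost none; and Klf1 gained 3, lost none and kept 6. Csf1r, the receptor for the macrophage growth factor, gained 1, lost 12 and kept none. Itgam, an adhesion receptor of myeloid cells, gained none, lost 13 and kept 3, and Cebpa, a granulocyte factor, gained none, lost 6 and kept 2. Spi1 gained 1, lost 6 and kept 4. Among the stem cell genes Mecom gained 8 and lost 35 and Prdm16 gained 3 and lost 22, and P2ry12, a platelet ADP receptor, gained none and lost 13. These genes were chosen from the lists after their values were seen.

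Promoters of myeloid genes were called less often in MEP, and few promoters were called in MEP alone. A promoter was called in a library when a peak centre lay within 500 bp of a start of the gene. Of 21911 genes, 82 promoters were called in both MEP and neither CMP library, and 915 in neither MEP and both CMP libraries. For granulocyte genes 10 and 6 of 28 promoters were called in the MEP libraries and 23 and 20 in the CMP libraries, and for monocyte and dendritic genes 14 and 14 of 27, against 25 and 26. Over all genes 60.7% and 60.2% of promoters were called in MEP, against 66.9% and 64.7% in CMP, so these too were called less often in MEP. In granulocyte genes the shares were 35.7% and 21.4% in MEP, against 82.1% and 71.4% in CMP. Called in both CMP and in neither MEP library were, among others, Elane and Ctsg (neutrophil proteases), Csf3r (the G-CSF receptor), Itgam, Lyz2 (lysozyme), Csf1r and Ccr2 (a monocyte chemokine receptor).

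Some megakaryocyte promoters were not called in MEP either. Of 30 megakaryocyte genes, 22 and 22 had a called promoter in MEP and 25 and 27 in CMP. Gp9 and Gp1bb, subunits of the platelet receptor for von Willebrand factor, were called in both CMP and neither MEP library. Red cell protein promoters were called for 28 and 28 of 29 genes in MEP, against 27 and 25 in CMP; the Hbb-bt promoter, of an adult beta-globin, was called in both MEP and neither CMP library, and Slc4a1 (band 3) and Cldn13 in both MEP and 1 CMP library. The Hbb-bt window gained 0 elements, lost 2 and kept 7, so this promoter call rests on where peak centres lay and not on a gained element. Hbb-bt has a near-identical neighbour, Hbb-bs, and reads shared by both cannot be told apart. Heme and iron genes had 18 of 19 promoters called in each of the 4 libraries, and housekeeping genes 18 of 18. Of the 6 genes used as sorting markers, only Il7r (IL7Ra) differed between the populations, called in neither MEP and both CMP libraries, although both gates took IL7Ra-negative cells. T and NK cell genes had 6 and 6 of 20 promoters called in MEP, against 11 and 12 in CMP, and mast, basophil and eosinophil genes 5 and 7 of 14, against 9 and 8. In such sorted samples, fewer cells of a type and less open DNA per cell cannot be told apart.

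**Figure D5:**
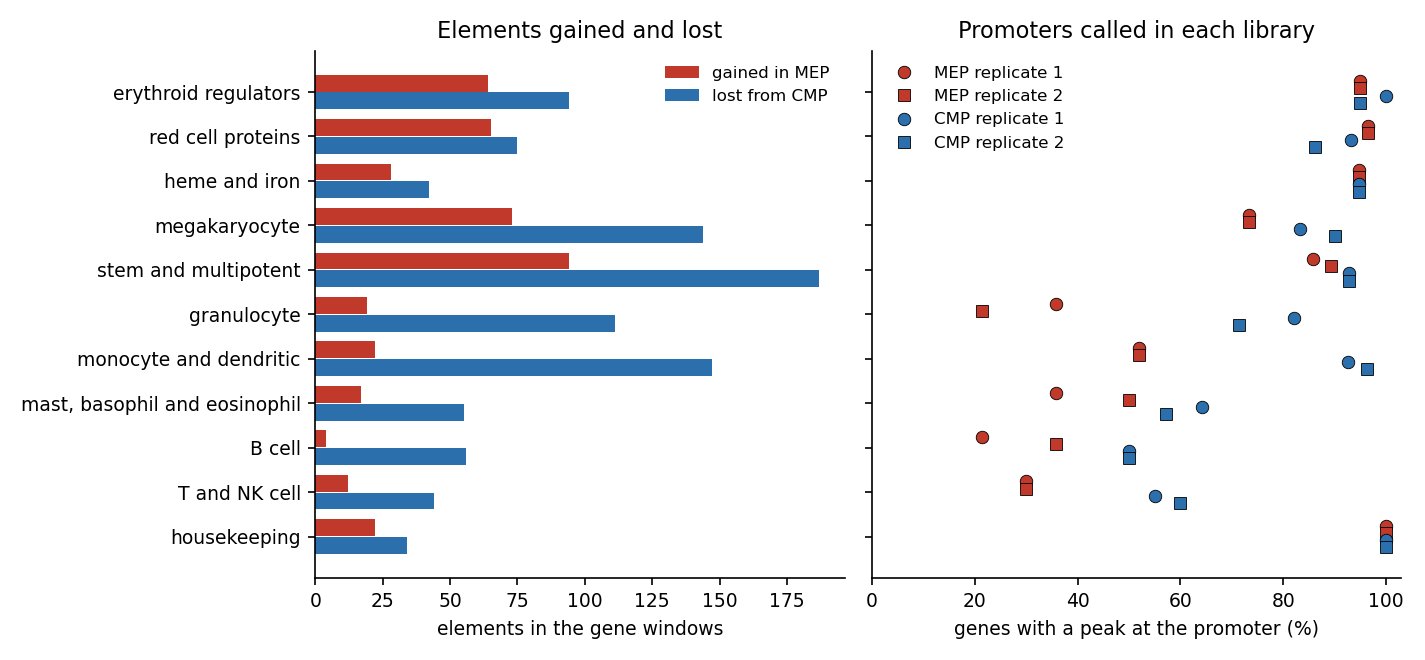
Left, elements gained in MEP (red) and lost from CMP (blue) in the windows of the genes of 11 lists; right, percent of the genes of each list with a peak at the promoter in each of the 4 libraries, MEP in red and CMP in blue. Granulocyte genes had 19 gained and 111 lost elements, and 10 and 6 of their 28 promoters were called in MEP against 23 and 20 in CMP; housekeeping promoters were called in all 4 libraries.

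The number of peaks in each window was then compared by limma on log2 peaks per 100000 called peaks, in a fit over all 24 libraries of the series. The fit included the cell lines and pooled the spread of all 12 populations. Of the 17018 genes whose windows averaged 3 peaks or more, 125 (0.735%) had more and 170 (0.999%) fewer peaks in MEP at a Benjamini-Hochberg adjusted p under 0.05. MEP had fewer peaks in total, so this scale raised the median of all genes to a log2 difference, MEP minus CMP, of 0.12, and values are to be read against that. Without scaling the counts were 38 and 707 and the median was -0.23; with median of ratios scaling they were 85 and 428 and -0.07, and no called gene changed sign. Both MEP libraries lay above both CMP libraries for 33.8% and below them for 18.7% of all genes tested, so lack of overlap alone is common at 2 against 2. Leaving out 1 library left 35 and 50 calls without CMP replicate 1, 13 and 48 without CMP replicate 2, 24 and 119 without MEP replicate 1, and 14 and 60 without MEP replicate 2. Of the 30 called genes named here, 17, 15, 23 and 14 still passed in these 4 fits, and none changed sign. The window mattered too: 13 of the 30 passed with the gene body alone and 16 with 50 kb on each side. With the gene body alone, 42 of the 125 and 71 of the 170 calls were kept, and 100 and 95 of these genes were tested.

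The windows with the largest falls held few or no peaks in MEP. Btla, an inhibitory receptor of lymphocytes, had 0 and 0 peaks in MEP, against 16 and 16 in CMP, and all 10 of its CMP elements were lost. Set against a floor of 3 peaks per library, put in place of the count of 0, it was at least 4.08-fold lower in MEP (limma, adjusted p = 4.47e-05). The floor was chosen, so this and the other folds given as at least hold relative to it and carry no confidence level. Clec5a, a myeloid activating receptor, had 0 and 0 peaks in MEP, against 13 and 18 in CMP, and was at least 3.98-fold lower (limma, adjusted p = 2.75e-04). Bhlhe22, Tnfsf15 and Olfr460, whose window overlaps that of Clec5a, were likewise at 0 in both MEP libraries and at least 3.801-fold, 3.45-fold and 3.08-fold lower. Tfec, a macrophage factor, had 1 and 0 peaks in MEP, against 18 and 20 in CMP. Pid1 had 2 and 2 peaks in MEP, against 48 and 28 in CMP, a log2 difference of -3.22 ± 0.31 (SE), with 20 elements lost. Dthd1, Oprm1 and Sptssb had log2 differences of -3.26, -3.21 and -3.17.

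The largest rises were smaller than the largest falls. Olfr419, an olfactory receptor gene, had 12 and 11 peaks in MEP, against 2 and 2 in CMP, a log2 difference of 2.24 ± 0.49 (SE; limma, adjusted p = 0.0139). Slc7a15 had 17 and 19 peaks in MEP, against 4 and 5 in CMP (2.07 ± 0.40), and Slc9b1, a sodium-proton exchanger, 11 and 12, against 2 and 3 (2.06 ± 0.35). The window of Slc7a15 gained 2 elements and lost 2, while that of Slc9b1 gained 5 and lost none. Fam193a had 18 and 25 peaks in MEP, against 9 and 6 in CMP, with 7 gained and no lost elements. Hus1b, Smim8, Cacng2, Rif1 (a DNA repair and replication timing protein), Acbd6 and Acyp2 had log2 differences between 1.63 and 1.86. Of the 125 genes with more peaks 117 had more gained than lost elements, and all 170 with fewer peaks had more lost than gained, which follows in part from the same peaks.

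The gene lists showed falls only. Of 27 monocyte and dendritic genes tested, 5 fell and none rose, and of 28 granulocyte genes 2 fell and none rose, against 0.999% of all genes that fell; the list medians were -0.50 and -0.49, against 0.12 for all genes. Sirpa had 3 and 2 peaks in MEP, against 19 and 19 in CMP, a log2 difference of -2.12 ± 0.42 (SE), and Ly86, Itgax (CD11c, of dendritic cells), Adgre1 (F4/80, of macrophages) and Ms4a6c had log2 differences of -1.75, -1.73, -2.36 and -2.48. Gfi1, a granulocyte and stem cell repressor, had 6 and 3 peaks in MEP, against 22 and 22 in CMP (-1.72 ± 0.36), and Cybb, the phagocyte oxidase heavy chain, had 0 and 0, against 14 and 8, at least 2.77-fold lower. Among 14 B cell genes 3 fell: Ebf1, the B cell commitment factor, with 15 and 12 peaks in MEP against 37 and 37 in CMP (-1.01 ± 0.26), Il7r, at least 2.69-fold lower, and Ms4a1 (CD20), at least 1.40-fold lower. Mpo, Elane, Prtn3 and Ctsg, granule proteins of promyelocytes, did not pass, with log2 differences of -1.19, -0.95, -0.53 and -1.49, nor did Irf8, a monocyte and dendritic factor (-0.99), and Csf1r (-1.23).

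No erythroid, heme or megakaryocyte gene passed in either direction. Of 20 erythroid regulators, 29 red cell protein, 19 heme and iron and 29 megakaryocyte genes tested, none was called by limma; 2, 6, 0 and 3 were higher and 1, 1, 0 and 2 lower at an unadjusted p under 0.05, where 10.2% of all genes were higher and 5.96% lower, and the medians were 0.11, 0.15, 0.28 and 0.09. Gata1 had 10 and 12 peaks in MEP, against 8 and 10 in CMP (0.60 ± 0.39), Klf1 15 and 13, against 11 and 11 (0.66 ± 0.27), and Tal1 19 and 19, against 20 and 22 (0.23 ± 0.27). Lmo2 had 7 and 9 peaks in MEP, against 15 and 15 in CMP (-0.47 ± 0.24). Hbb-bt and Hbb-bs had 0.80 and 0.79, and Hba-a1 and Hba-a2, the alpha-globins, -0.50 and -0.40. Alas2, the first enzyme of heme synthesis in red cells, had 0.41. Itga2b (CD41) had 0.44, Gp1ba 0.80, Itgb3 -0.24 and Gp1bb -0.87. None of 28 stem and multipotent genes was called either, with 1 higher and 1 lower at an unadjusted p under 0.05; Cd34, Kit, Flt3 and Hlf had 0.19, 0.07, -0.30 and -0.55. In windows simulated at these depths with independent Poisson counts, the test recovered 18 of 50 rises and 10 of 50 falls of 2 on the log2 scale. It recovered 0 of 50 rises and 3 of 50 falls of 1. Counts of real replicates may spread otherwise than Poisson counts, so these recoveries need not hold for the data. A missing call does not show that a gene was unchanged.

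Strength changed where presence did not. Scores of the 53627 kept elements, quantile normalized so that rises and falls balance by construction, were compared by limma over the 4 libraries. Higher in MEP were 10277 (19.2%) and lower 10590 (19.7%). The log2 difference was at least 1 in size in 5665 of the higher and in 5527 of the lower elements. Among distal kept elements the GATA motif lay in 61.9% of those that rose, 36.4% of those that fell and 32.3% of the others, and the E-box composite in 12.4%, 4.00% and 3.30%. PU.1's motif lay in 1.75%, 6.99% and 2.26%, and CTCF sites in 4.89%, 6.69% and 15.8%. CFUE had 63.0% of the elements that rose, 27.7% of those that fell and 52.5% of the others, and LSK 41.9%, 92.1% and 76.1%. A gained element lay within 10 kb of 47.3% of the elements that rose, 31.7% of those that fell and 33.4% of the others.

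Among the gene lists, red cell proteins had the largest share of kept elements that rose. In windows of red cell protein genes 73 of 146 kept elements rose and 11 fell, with a median log2 difference of 0.57, against -0.0022 for all kept elements. Erythroid regulators had 48 of 139 that rose and 13 that fell, and heme and iron genes 31 of 89 and 9. Megakaryocyte genes had 33 of 172 that rose and 54 that fell, monocyte and dendritic genes 13 of 94 and 29, stem and multipotent genes 39 of 188 and 49, and genes known to be repressed by GATA1 5 of 50 and 18. Granulocyte genes were even, with 13 of 72 each way, among the elements that were kept at all.

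Elements with large rises and falls near listed genes were named by their size. An intergenic element in the window of Hba-a1, 1428 bp from a start of Nprl3, the neighbour whose introns hold the alpha-globin enhancers, had deposited scores of 32.4 and 38.4 in MEP, against 6.97 and 5.69 in CMP, a normalized log2 difference of 2.92 ± 0.23 (SE; limma, adjusted p = 3.06e-14). Elements of Ank1, an ankyrin of the red cell membrane skeleton, and in the windows of Gfap and Gusb rose by 2.90, 3.20 and 2.85. All values of MEP lay above all values of CMP in these elements.

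The falls were as large. A promoter element of Tlr4, a bacterial sensor of monocytes, had 3.17 and 3.78 in MEP, against 59.3 and 78.3 in CMP, a log2 difference of -3.86 ± 0.23 (SE; limma, adjusted p = 1.42e-17). Elements of the platelet genes Selp (P-selectin) and P2ry12 had 6.77 and 7.42 in MEP, against 94.6 and 132.4 in CMP (-3.50 ± 0.20), and 2.12 and 3.49, against 32.9 and 41.6 (-3.38 ± 0.28). Mef2c, a factor of lymphoid and megakaryocytic cells, had 3.49 and 6.25 in MEP, against 55.0 and 76.7 in CMP (-3.36 ± 0.24), although its window gained 12 and lost 6 elements. An element beside Bcl11a, a repressor of fetal globin, fell by 3.16 and 1 in Lef1, a lymphoid factor, by 3.02. The Cd34 promoter, picked afterwards because CD34 separates the 2 gates, had 8.78 and 9.02 in MEP, against 59.7 and 65.7 in CMP (-2.36 ± 0.20). It was kept as an element while its score fell.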

How the data were processed

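ATAC-seq peak lists of 12 mouse populations, 2 libraries each, were used. Per the study's methods, the authors trimmed reads, mapped them by Bowtie 0.12.8 (genome mm10), discarded unmapped, mitochondrial and unplaced reads, converted the alignments with SAMtools and bedtools, and called peaks with HOMER. The methods and the submitters' processing notes name different SAMtools versions. The deposited lists hold 2 score columns whose names are not given; the first score was used. Low values of that score are whole multiples of a step (at least 96.9% of values under 10, within 0.0051), which gave relative depth, but not read counts.

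Peaks overlapping by at least 1 bp were merged into elements with Python 3.11.15, NumPy 2.4.6, SciPy 1.17.1 and pandas 2.3.3. limma 3.58.1 in R 4.3.3, with trend and robust variance and Benjamini-Hochberg adjustment at 0.05, tested peaks per 100000 called peaks (prior 1) in gene windows over 24 libraries, and quantile normalized log2 scores of kept elements over 4 libraries. Both fits were tested on simulated data. Text names the 10 largest rises and 10 largest falls, called list members and up to 4 others per list, the 6 largest clusters of each class, and the 6 largest score rises and falls of kept elements near listed genes; other names were chosen after their values were seen, and some items that the rule names are not reported here. The elements and gene lists were chosen with earlier results of these data known. Alternatives changed overlap, score filter, replicate rule, distances, window, prior, scaling, filter, libraries and block. Motif windows moved by 10 kb gave the background of the motif shares.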

Additional observations from a re-analysis of the deposited data

How the results depend on the processing

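With a peak in either replicate the numbers of gained and lost elements were 59192 and 86325, and leaving out 1 library gave 15268 to 56416 and 47212 to 92637. The share of CMP elements kept was 54.9% with 160409 top scoring peaks per library, 47.5% with a peak in either replicate and 39.7% to 56.3% with 1 library left out. The promoter shares of gained and lost elements were 19.6% and 17.6% with reciprocal overlap, 19.1% and 17.4% without the lowest scoring peaks, 11.97% and 13.6% with either replicate, 21.4% and 18.4% with elements of CMP and MEP only, 10.01% and 10.7% at 500 bp, 25.8% and 23.4% at 2 kb, and 14.1% to 17.2% and 14.6% to 18.1% with 1 library left out. The GATA share of gained elements was 62.7% with reciprocal overlap, 65.4% without the lowest scoring peaks, 61.3% with equal numbers, 44.3% with either replicate, 61.03% with elements of CMP and MEP only and 45.5% to 65.6% with 1 library left out. The PU.1 share of lost elements was 11.7%, 11.8%, 12.2% and 9.42% under the first 4 of these and 9.22% to 12.2% with 1 library left out. The share of gained elements in clusters was 33.3% with either replicate, 23.01% with elements of CMP and MEP only, 11.3% at a gap of 5 kb, 39.1% at 25 kb and 11.3% to 34.7% with 1 library left out. That of lost elements was 41.8% with reciprocal overlap, 36.2% without the lowest scoring peaks, 34.7% with equal numbers, 49.5% with either replicate, 44.3% with elements of CMP and MEP only, 21.6% at 5 kb, 68.9% at 25 kb and 34.7% to 52.6% with 1 library left out. The causes were not tested.

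Windows with more and with fewer peaks in MEP numbered 213 and 293 at a prior of 3, 38 and 707 without scaling, 830 and 824 in the 4 libraries alone, 452 and 478 without the lowest scoring peaks, and 13 to 35 and 48 to 119 with 1 library left out. Fewer peaks were called in 286 windows without a filter and in 428 with median of ratios scaling. No called window changed sign. The replicate numbers were not taken to pair the samples: over 21 pairs of populations, the correlation over genes of replicate 1 minus replicate 2 ran between -0.179 and 0.255, and 9 pairs exceeded 0.1. MEP and CMP had the highest, 0.255. With a replicate block in the 14 libraries of the 2 number runs, 454 and 411 windows were called, against 468 and 424 in the same libraries without it, a fit added after seeing the data. With the block, 11105 kept elements were higher and 11448 lower.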

Other observations

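The changes were spread over the genome. Kept elements made up between 46.0% of CMP elements on chromosome 14 and 55.1% on chromosome 11 among the autosomes. Gained elements had a mean of 15.0% of their bases in repeat-masked sequence, lost elements 13.3% and kept elements 10.2%. The promoter of Ins2, an insulin gene of another tissue, was called in both MEP and neither CMP library, and that of Neurod1, a neuronal and endocrine factor, in neither MEP and both CMP libraries.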
